A study of Mus musculus with 15 samples.

Results

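The olfactory receptor (Olfr) genes were taken as all protein-coding genes on chromosomes 1 to 19 whose RefSeq symbol starts with Olfr and a digit. They numbered 1104 of the 20665 protein-coding genes on these chromosomes. Each was read over a window made of its gene body and 1 kb on either side. Their median length was 950 bp, and they lay on 16 chromosomes. Joined wherever neighbours were at most 1 Mb apart, they formed 48 clusters, of which 22 held at least 10 genes and together 1020 of the 1104. The largest was a run of 222 genes on chromosome 2, and 9 genes stood alone.

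Olfactory receptors are G-protein-coupled receptors that detect odorants in sensory neurons of the nose, where each neuron expresses a single receptor gene from a single allele. In those neurons the silent receptor genes are packed into heterochromatin that carries H3K9me3, and the transcription factors Lhx2 and Ebf act at the enhancers that select the active gene. The liver has no olfactory neurons, and most of the family is silent there, although a few receptors such as Olfr78 and Olfr544 have been studied outside the nose.

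The data were lists of enriched regions from chromatin immunoprecipitation and sequencing (ChIP-seq) of liver from C57Bl/6 mice aged 8 to 12 weeks, either wild type (WT) or Uhrf1hepKO (KO). The KO name denotes hepatocytes without Uhrf1, whose protein guides the copying of DNA methylation after replication; other liver cells keep the gene, and the labels do not give the driver of the deletion. H3K4me3, a mark of active promoters, was measured in 2 libraries of each genotype, and H3K9me3 in a single library of each. H3K27me3, the mark of Polycomb repression, was measured in WT replicate 1 and KO at baseline and in regenerating WT liver at 0, 30, 40 and 96 h, the 0 h library serving as the second WT baseline library. The labels place the H3K9me3 libraries and replicate 2 of H3K4me3 in round 2. They place the regeneration libraries in round 3, with a single input, and give no round for H3K27me3 WT replicate 1 or KO. The labels do not say how regeneration was started or whether replicates came from separate animals.

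All 5 hepatocyte marker genes examined (Alb, Apoa1, Ttr, Cps1 and Hnf4a) had an H3K4me3 peak in each of the 4 H3K4me3 libraries. Of 5 genes of olfactory sensory neurons, 3 had a peak in WT replicate 1 and 2 in each of the other 3 libraries, and Omp, which defines mature olfactory neurons, had none in any of them. In whole liver, a mark in fewer cells and less of the mark per cell cannot be told apart. The H3K27me3 islands held about 12757700 ChIP reads at 40 h and 21724800 at 0 h, the lowest and highest of the 6 lists, and they spanned 378 to 499.7 Mb. The ratio of ChIP to control library size that the authors' folds imply, a measure of relative depth between lists that share a control, was 0.576 in WT replicate 1 and 0.642 in KO. The ratio was 0.447 at 0 h and 0.369, 0.342 and 0.438 at 30, 40 and 96 h. Control read counts at 0 h differed from those of the other lists at nearly all islands of the same position. WT replicate 1 and KO shared a control library, as did the 30, 40 and 96 h libraries. Most comparisons rest on 1 library per group and have no replicate check. With 2 H3K4me3 libraries per genotype, an exact permutation test could not reach a small p, so no p-values are given.

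Promoter sequences of 300 bases, from 250 before to 50 after the annotated start, were present in the RefSeq table of build GRCm38.p6 for 938 of the 1104 genes. The 4 printed below, 5′ to 3′ with CpG dinucleotides in capitals, differ in GC content and in H3K27me3 coverage. Olfr224 and Olfr283 were covered by H3K27me3 in all 6 libraries, and were chosen for the median GC content and the most CpG dinucleotides among such genes. Olfr1096, of the 222-gene cluster on chromosome 2, was covered in none and had the median GC content of that cluster's uncovered genes. Olfr544 was covered in KO alone.
Olfr224, chr11:58570519-58570818, minus strand: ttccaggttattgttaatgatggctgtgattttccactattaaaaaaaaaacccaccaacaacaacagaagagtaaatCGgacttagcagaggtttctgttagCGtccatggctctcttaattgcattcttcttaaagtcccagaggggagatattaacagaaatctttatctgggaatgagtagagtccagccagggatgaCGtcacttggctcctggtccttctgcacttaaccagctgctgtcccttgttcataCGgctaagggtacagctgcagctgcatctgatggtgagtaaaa
Olfr283, chr15:98379148-98379447, minus strand: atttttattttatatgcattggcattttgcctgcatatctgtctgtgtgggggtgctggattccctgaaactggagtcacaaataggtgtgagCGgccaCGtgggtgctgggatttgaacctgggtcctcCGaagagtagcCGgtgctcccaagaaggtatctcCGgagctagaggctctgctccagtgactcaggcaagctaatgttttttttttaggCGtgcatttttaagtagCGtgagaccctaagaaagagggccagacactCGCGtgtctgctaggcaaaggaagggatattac
Olfr1096, chr2:86874753-86875052, minus strand: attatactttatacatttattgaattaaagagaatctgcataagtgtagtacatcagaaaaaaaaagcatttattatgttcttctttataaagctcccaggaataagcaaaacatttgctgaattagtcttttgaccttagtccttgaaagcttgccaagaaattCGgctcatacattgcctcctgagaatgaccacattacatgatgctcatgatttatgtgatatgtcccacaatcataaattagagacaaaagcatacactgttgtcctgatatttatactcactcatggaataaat
Olfr544, chr7:102488258-102488557, minus strand: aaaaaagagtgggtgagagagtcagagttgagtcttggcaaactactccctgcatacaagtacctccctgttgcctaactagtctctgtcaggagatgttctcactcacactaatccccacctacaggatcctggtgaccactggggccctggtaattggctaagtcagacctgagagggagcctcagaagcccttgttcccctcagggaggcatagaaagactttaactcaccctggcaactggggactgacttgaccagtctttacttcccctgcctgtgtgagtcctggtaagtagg
The promoters of Olfr224 and Olfr283 held 4 and 9 CpG dinucleotides at 43.7% and 49.3% GC. That of Olfr1096 held 1 at 32.0% GC, and that of Olfr544 none at 51.7% GC. Of the 899 Olfr genes under 1100 bp, 796 had a length that is a multiple of 3, as coding sequence alone would have, so many of these windows may begin at the coding sequence and not at the start of the transcript.

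Most olfactory receptor genes carried none of the 3 marks in liver. In 782 of the 1104 (70.8%), no base of the window lay in a region of any mark in any of the 12 libraries, against 1456 of the 19561 other protein-coding genes (7.44%) and 10.8% of all genes. The Olfr windows are short, and a longer window meets a region more easily. The type 1 vomeronasal receptors (Vmn1r), the pheromone receptors of the vomeronasal organ, have a like length (median 924 bp), and 169 of those 230 genes (73.5%) also met no region. Of the 3 marks, H3K27me3 touched the most Olfr genes in at least 1 library, 300, while H3K9me3 touched 30 and H3K4me3 touched 10. Over all 20665 protein-coding genes these counts were 8184, 5401 and 15199. The H3K27me3 lists spanned at least 378 Mb each and the lists of the other marks at most 56.4 Mb, and a longer list touches more windows.

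A gene was called covered by H3K27me3 when islands with a false discovery rate of 0.01 or less held at least 50% of its window. By this rule 189 Olfr genes were covered in WT replicate 1 (17.1%, exact 95% interval 14.9 to 19.5) and 183 in the WT 0 h library (16.6%, 14.4 to 18.9). The count was 177 in KO (16.0%, 13.9 to 18.3). At 30 h it was 172 (15.6%, 13.5 to 17.9), at 40 h 133 (12.0%, 10.2 to 14.1) and at 96 h 227 (20.6%, 18.2 to 23.1). The same rule called 16.7% of all protein-coding genes in WT replicate 1 and 22.2% in the 0 h library. It called 19% in KO and 15.4%, 14.1% and 18.1% at 30, 40 and 96 h. The Olfr share was thus near the background in WT replicate 1 and at 30 h, below it at 0 h, in KO and at 40 h, and above it at 96 h. Intervals are Clopper-Pearson and cover counting error only, and neighbouring genes that share an island are not independent counts.

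**Figure D1:**
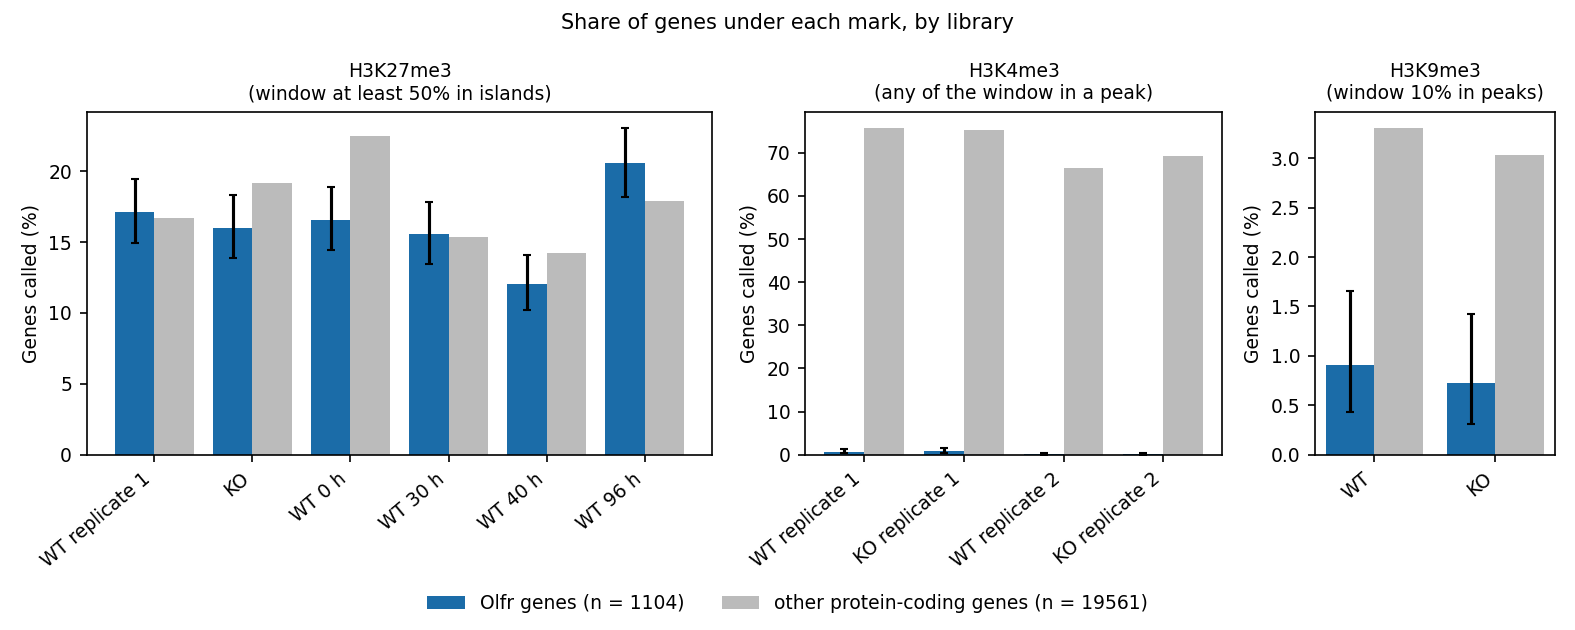
Share of Olfr genes (blue, with exact 95% intervals) and of other protein-coding genes (grey) called for H3K27me3, H3K4me3 and H3K9me3 in each library, in percent on 3 separate vertical scales. For H3K27me3 the Olfr bars run from 12.0% at 40 h to 20.6% at 96 h beside grey bars of 14.3% to 22.5%, while for H3K4me3 they stay below 1% beside 66.4% to 75.8%.

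Coverage was mostly all or none, which windows far shorter than most islands would give in any family. In WT replicate 1, 180 genes were covered over at least 90% of the window, 9 over 50% to 90%, 11 over 10% to 50% and 5 over less, and 899 had no covered base. Across the 6 H3K27me3 libraries 71 genes were covered in all (6.43%, against 7.86% of all genes), 816 in none (73.9%, against 72.2%) and the others in 1 to 5 of them. The 104 islands over Olfr genes in WT replicate 1 had a median length of 30.5 kb, and only 20 of them also touched the window of another kind of gene. Their median fold over control, the authors' own value, was 1.52 against 1.62 for the other islands of that list. Their control reads were close to those of the other islands (41.4 against 39.4 per kb). Control reads at the 899 genes with no covered base are not in the lists. How the authors treated reads that map to several near-identical receptor genes is not given in the sources used here.

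Coverage differed from cluster to cluster. A run of 8 genes on chromosome 1 from Olfr1416 to Olfr12 (chr1:92479681-92621001) was covered whole in all 6 libraries, in WT replicate 1 by a single island of 158 kb with 6901 ChIP reads and a fold of 1.90. A run of 9 genes on chromosome 15 had 8 or 9 covered in every library. In contrast the 222-gene cluster on chromosome 2 (chr2:85330967-90401674), a stretch of 5073 kb with only 3 other protein-coding genes inside, had 0 to 2 genes covered in each library. Islands held 0.74% of its span in WT replicate 1. The genes covered in it were Olfr1274 in WT replicate 1, at 0 h and at 96 h, and Olfr996 and Olfr998 at 30 h.

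Among the 22 clusters of at least 10 genes, the 5 with the highest share covered in WT replicate 1 lay on chromosomes 4, 10 and 11. The 13-gene cluster on chromosome 4 (Olfr62 to Olfr1328) had 10 genes covered in WT replicate 1, 12 in KO, 12 at 0 h, 6 at 30 h, 5 at 40 h and 9 at 96 h. The 30-gene cluster on chromosome 11 (Olfr20 to Olfr412) had 21, 16, 17, 16, 6 and 20 covered in the same order. The 10-gene cluster on chromosome 10 (Olfr1358 to Olfr57) had 6, 1, 4, 5, 2 and 5. The first of these 3 was lowest at 40 h, as was the second, and the third was lowest in KO. The 24-gene cluster on chromosome 11 (Olfr30 to Olfr225) had 14, 16, 20, 18, 17 and 19, so that its 40 h count exceeded that of WT replicate 1. The 19-gene cluster on chromosome 11 (Olfr1396 to Olfr1380) had 10, 8, 5, 7, 6 and 10.

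At the other end, 5 clusters of at least 10 genes had no gene covered in WT replicate 1, and 3 of them had none in any of the 6 libraries. These 3 were the 37 genes on chromosome 2 from Olfr1275 to Olfr1318, the 15 on chromosome 7 from Olfr310 to Olfr292, and the 25 on chromosome 16 from Olfr172 to Olfr209. No island overlapped any base of their spans in any library. The 19-gene cluster on chromosome 1 (Olfr16 to Olfr220) had 0 to 2 genes covered per library, and the 28-gene cluster on chromosome 2 (Olfr338 to Olfr368) 0 or 1.

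**Figure D2:**
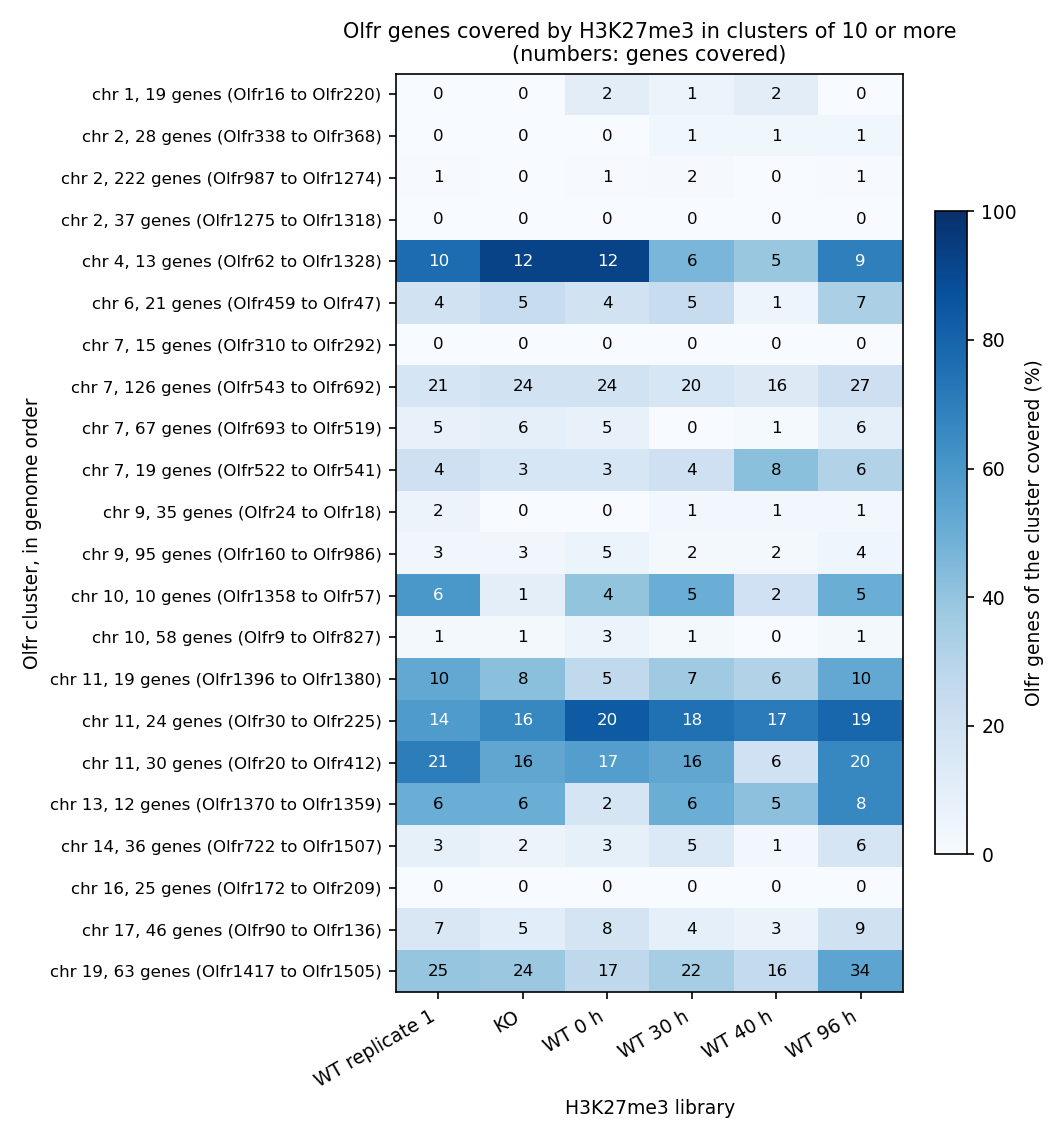
Olfr genes covered by H3K27me3 in each of the 22 clusters of at least 10 genes (rows, in genome order) and 6 libraries (columns), with the colour giving the share in percent and the number in each cell the genes covered. The chromosome 4 and 11 clusters are dark in most columns and the 3 clusters with 0 in every column are blank throughout.

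Shares covered were highest in clusters of 5 to 9 genes and lowest in those of at least 100. In WT replicate 1, 48.6% of the 35 genes in clusters of 1 to 4 were covered and 59.2% of the 49 in clusters of 5 to 9. The share was 35.5% in clusters of 10 to 24, 13.9% in those of 25 to 49 and 12.0% in those of 50 to 99. In the 2 clusters of at least 100 it was 6.32%. At 96 h the shares were 54.3% and 69.4% in the 2 smallest classes and 8.05% in the largest.

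Over all clusters together, coverage was higher near genes of other kinds. Of the 95 Olfr genes at most 20 kb from a protein-coding gene that is no Olfr gene, 45 were covered in WT replicate 1 (47.4%, exact 95% interval 37.0 to 57.9). Between 20 and 50 kb the share was 42.0% of 162 genes, and between 50 and 100 kb 21.8% of 188. It was 13.1% of 221 genes between 100 and 200 kb, 1.80% of 278 between 200 and 500 kb and 0.625% of 160 beyond 500 kb (1 gene, interval 0.02 to 3.43). The share within 20 kb was 51.6% in KO, 52.6% at 0 h, 41.1% at 30 h, 41.1% at 40 h and 52.6% at 96 h. Beyond 500 kb it was 1.25% in KO, 1.25% at 0 h, 0.625% at 30 h, 0.625% at 40 h and 3.13% at 96 h. Pooled over clusters, the share within 20 kb was thus far above that beyond 500 kb in all 6 libraries. Inside single clusters the order was mixed. Of the 22 clusters of at least 10 genes, 13 had a larger share covered within 50 kb than at 50 to 200 kb in WT replicate 1, 4 a smaller one and 5 an equal one. The 30-gene cluster on chromosome 11 went the other way, with 44.4% within 50 kb and 81.0% at 50 to 200 kb, as did the 10-gene cluster on chromosome 10 with 40% and 80%. The clusters with the larger share nearby numbered 13 in KO, 12 at 0 h, 11 at 30 h, 13 at 40 h and 9 at 96 h, and those with the smaller 1, 3, 7, 3 and 8.

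The difference between genes at most 50 kb and over 200 kb from another gene was 42.6 percentage points in WT replicate 1. It was 42.8 points without the 2 largest clusters and 44.5 points in the 0 h library. Genes of other kinds differed less: 16.1% of the 17583 with a neighbour at most 50 kb away and 16.4% of the 420 with none within 200 kb were covered in WT replicate 1. These shares were 22.4% and 17.6% at 0 h, 15.1% and 11.9% at 30 h and 14.0% and 10.2% at 40 h. Covered Olfr genes lay a median of 39.7 kb from such a neighbour, and those not covered 187 kb. Among the clusters of at least 10 genes alone, 77 of 197 genes at most 50 kb away were covered (39.1%) and 5 of 436 over 200 kb away (1.15%).

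**Figure D3:**
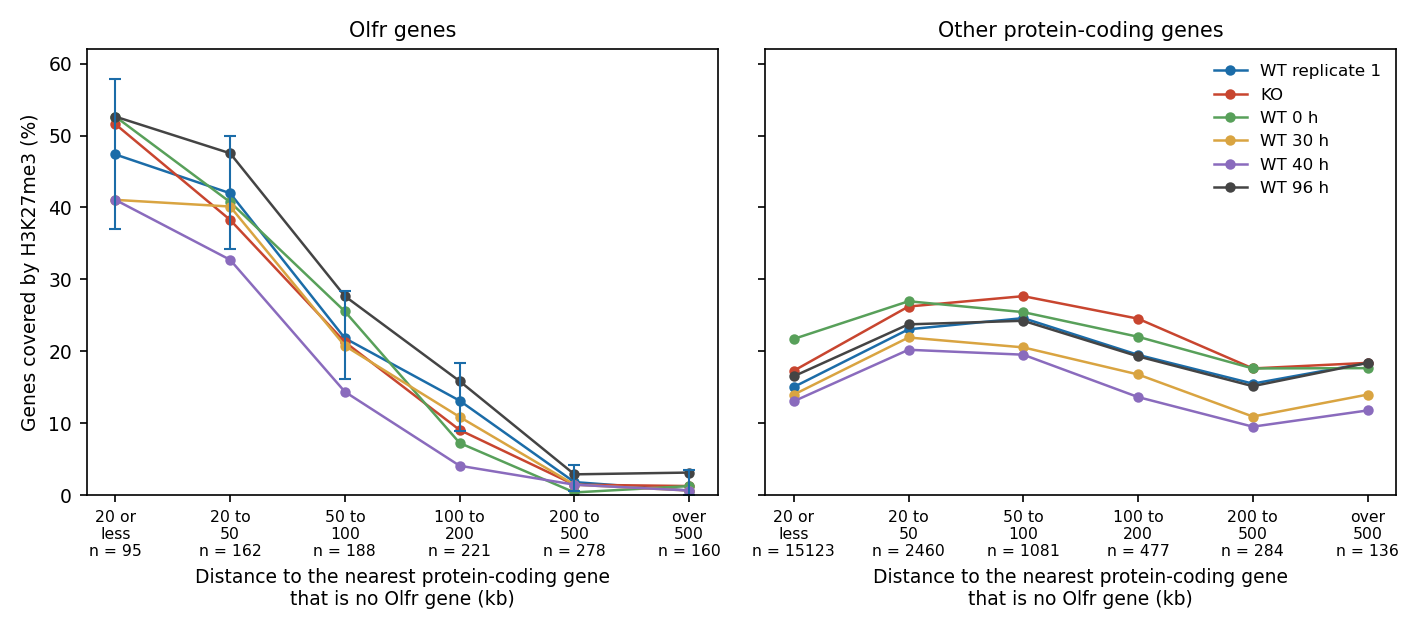
Share of genes covered by H3K27me3 (percent) against the distance in kb to the nearest protein-coding gene that is no Olfr gene, for Olfr genes (left) and other genes (right), with 1 line per library and exact 95% intervals for WT replicate 1. The Olfr lines go from 41.1% to 52.6% within 20 kb to 3.13% or less beyond 500 kb, and the lines for other genes stay between 9.51% and 27.7%.

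The class I receptors, which resemble those of fish, form the 126-gene cluster on chromosome 7 that holds Olfr78 (chr7:102476773-105369317). It had 21 genes covered in WT replicate 1 (16.7%, against 17.2% of the other 978 Olfr genes) and 24 in KO. Its counts at 0, 30, 40 and 96 h were 24, 20, 16 and 27. The covered genes lay near each end of the cluster and in a block from Olfr648 to Olfr656. An island of 101 kb held the 7 genes from Olfr550 to Olfr556 in WT replicate 1. None of the genes between Olfr571 and Olfr648, or between Olfr656 and Olfr685, was covered in any library. The 63-gene cluster on chromosome 19 (Olfr1417 to Olfr1505) differed in extent, with 25, 24, 17, 22, 16 and 34 genes covered in WT replicate 1, KO and at 0, 30, 40 and 96 h. Its first 20 genes were all covered in WT replicate 1. At 96 h it also had 10 of the 33 genes over 200 kb from another gene covered, against 2 or 3 in the other libraries.

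**Figure D4:**
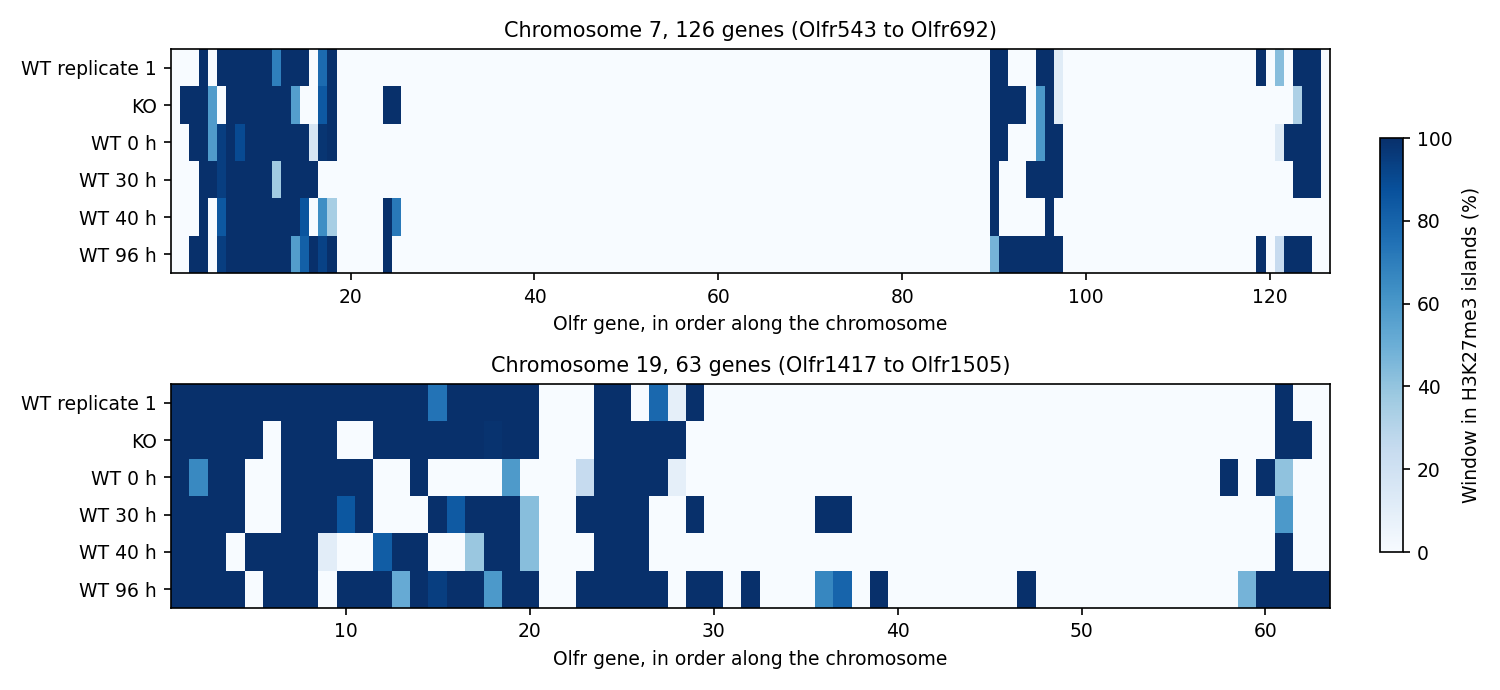
Percent of each window in H3K27me3 islands for the Olfr genes of the 126-gene chromosome 7 cluster (top) and the 63-gene chromosome 19 cluster (bottom), in chromosome order (horizontal axis) and by library (rows). Dark blocks lie in like regions in the 6 rows but differ gene by gene: 9 of the 126 and 8 of the 63 genes were covered in all 6 libraries, and 94 and 25 in none.

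The covered genes also had another promoter composition. Olfr promoters were poor in GC and CpG: their median GC content was 35.0% and they held a median of 1 CpG, against 57.7% and 15 in the 15519 other promoters. The Vmn1r promoters were like them, with medians of 36.0% and 1. The 62 promoters of genes covered in all 6 libraries had a median GC content of 43.8%, and the 688 of genes covered in none 34.3%. In WT replicate 1 the share covered was 5.44% of the 147 genes with at most 30% GC, 9.17% of 327 between 30% and 35% and 13.1% of 251 between 35% and 40%. It was 42.0% of 131 genes between 40% and 45% and 48.8% of 82 above 45%. Of the promoters printed above, Olfr224 falls in the 40% to 45% class and Olfr1096 in the 30% to 35% class. Olfr544, at 51.7% GC, was covered in KO alone.

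GC content and distance to another gene went together, with a median of 40.7% GC at most 50 kb away and 33.0% over 200 kb away. Among genes at most 50 kb away, 16.7% of the 12 with the lowest GC content and 62.5% of the 56 with the highest were covered in WT replicate 1. Over 200 kb away, none of the 17 genes above 40% GC with a promoter sequence was covered. Which of GC content and distance bears on coverage was not tested.

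**Figure D5:**
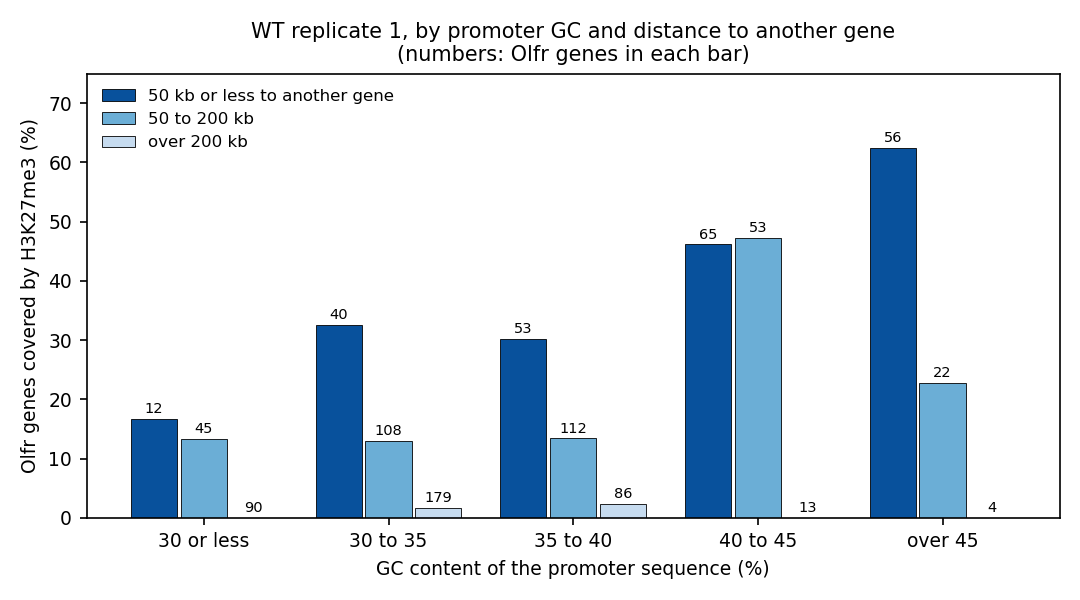
Share of Olfr genes covered by H3K27me3 in WT replicate 1 (percent, bars) by the GC content of the promoter sequence (percent, classes) and by distance to the nearest gene of another kind (shades), with the number of genes above each bar. Bars for genes at most 50 kb away go from 16.7% to 62.5%, and bars for genes over 200 kb away stay at 2.33% or less.

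Motifs were counted as letters on either strand, once per promoter, whether or not matches overlapped. TATAAA was in 41.2% of Olfr promoters and in 11.9% of the others, and TAATTA, a homeodomain core, in 18.8% and 3.76%. TCCCNNGGG, the core bound by Ebf factors, was in 2.56% and 7.58%. In Vmn1r promoters these motifs were in 42.4%, 7.32% and 0%, and in those of Vmn2r, another vomeronasal family, in 23.5%, 17.4% and 14.8%. In Olfr genes covered in all 6 libraries they were found in 14.5%, 11.3% and 4.84% of promoters, and in Olfr genes covered in none in 46.8%, 20.6% and 1.74%. Whether base composition alone gives such shares was not tested. A match is a description of the sequence alone.

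Between genotypes, few receptors differed from both WT libraries. A gene counted as lost in KO when it was covered in WT replicate 1 and at 0 h but not in KO, and as gained in the opposite case. The background is the share of all protein-coding genes able to change in that way that did. Of 141 Olfr genes that could be lost 17 were (12.1%, background 7.27%), and of 873 that could be gained 9 were (1.03%, background 1.73%). Each WT library was then set against the other 2 libraries in the same way. WT replicate 1 alone lacked 17 of 141 genes (background 18.0%) and the 0 h library alone 27 of 151 (background 8.64%). WT replicate 1 alone had 21 genes (background 1.25%) and 0 h alone 25 (background 5.95%). Set against WT replicate 1 alone, KO lacked 38 of 189 genes (background 11.9%) and had 26 of 915 that WT replicate 1 did not (background 5.13%), and against 0 h alone it lacked 42 of 183 (background 26%) and had 36 of 921 (background 3.32%). With both WT libraries required, the KO counts were no higher than those of either WT library. The WT libraries themselves differed by 48 of the 189 genes covered in WT replicate 1 (25.4%, background 13.2%) and 42 of the 183 covered at 0 h (23.0%, background 34.6%). The 0 h library is of round 3, and the labels give no round for WT replicate 1 and KO. Differences from the 0 h library thus cannot be told apart from a difference of round.

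The 17 lost genes lay in 8 clusters and under 13 islands of WT replicate 1. In the 30-gene cluster on chromosome 11, Olfr391, Olfr392 and Olfr43 were covered over 100% of the window in WT replicate 1 and at 0 h and over 0% in KO, and Olfr385 and Olfr403 of the same cluster were lost too. Olfr1274, at the edge of the 222-gene cluster on chromosome 2 and 28.1 kb from another gene, was at 100% in WT replicate 1, at 0 h and at 96 h, and at 0% in KO, at 30 h and at 40 h. It was the only gene of that cluster covered in a WT baseline library. Olfr1428 and Olfr76 on chromosome 19 were at 100% in both WT libraries and 0% in KO, as were Olfr239 on chromosome 17, Olfr320 on chromosome 11 and the class I gene Olfr33. The class I gene Olfr689 went from 100% in both to 32.7% in KO. The remaining lost genes were Olfr8, Olfr90, Olfr92, Olfr550 and Olfr1358; these 5, Olfr385 and Olfr403 were named after their values were seen. The authors' folds of the islands over these 17 genes in WT replicate 1 went from 1.26 at Olfr8 to 1.80 at Olfr1358.

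All 9 gained genes were covered over 100% of the window in KO. They were Olfr544, Olfr570, Olfr571, Olfr651 and Olfr652 in the class I cluster, Olfr1449 and Olfr1504 on chromosome 19, Olfr160 on chromosome 9 and Olfr49 on chromosome 14. Olfr1449 had 8.86% of its window covered in each WT baseline library and Olfr160 22.3% at 0 h, and the other 7 had 0% in both. Olfr651, Olfr652 and Olfr1504 were also at 100% at 96 h in WT, and Olfr570 and Olfr49 at 100% at 40 h and 96 h. Olfr571 was at 71.8% at 40 h. Coverage of these genes was thus not particular to KO. Olfr544, Olfr160 and Olfr1449 were covered in KO alone. When only the islands with the highest folds were kept, to the same total length in each library, gains fell to 2 and losses came to 23, and the KO count went from 177 to 111. Islands with a fold of at least 1.5 gave 7 losses and 8 gains. Shares over all genes were not computed at either setting.

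During regeneration, the number of covered receptors was lowest at 40 h and highest at 96 h. From 0 to 30 h, 61 of 183 covered Olfr genes lost coverage (33.3%, background 40.2%) and 50 of 921 gained it (5.43%, background 2.70%). From 0 to 40 h, 81 lost it (44.3%, background 45.0%) and 31 gained it (3.37%, background 2.49%). From 0 to 96 h, 27 lost it (14.8%, background 29.6%) and 71 gained it (7.71%, background 3.13%). Losses at 30 and 40 h were thus near or below the share over all genes, and at 96 h the Olfr genes had a smaller share of losses and a larger share of gains than all genes. These 3 comparisons share the 0 h library. Its control read counts equalled those of the 30 h library at only 1 of 51 islands of the same position. The labels give a single input for round 3, so the control used at 0 h is not known. The difference of the 0 h library from the later libraries and a change of control cannot be told apart.

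Among the libraries that shared a control, 75 of 172 genes covered at 30 h were not covered at 40 h (43.6%, background 31.1%) and 36 of 932 became covered (3.86%, background 4.19%). From 40 to 96 h, 20 of 133 were lost (15%, background 19.7%) and 114 of 971 were gained (11.7%, background 7.80%). Island length and depth moved the same way: islands held 417, 378 and 458 Mb at 30, 40 and 96 h, and the depth ratio was 0.369, 0.342 and 0.438. Held to the same total island length per library, the count was 168 in WT replicate 1, 133 at 0 h, 144 at 30 h, 133 at 40 h and 168 at 96 h (111 in KO), so that 40 h equalled 0 h and 96 h equalled WT replicate 1. The 40 h list was the shortest and set this length, so its own count could not change. With islands of fold 1.5 or more the counts were 119, 51, 33 and 125 at 0, 30, 40 and 96 h. The median fold of all islands was 1.58, 1.45, 1.45 and 1.56 at these times, so this cutoff removed most islands at 30 and 40 h. Shares over all genes were not computed at either setting, so these counts are not read as particular to Olfr genes.

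Over the 4 times 81 receptors were covered throughout, 44.3% of those covered at 0 h (background 39.5%), and 825 at no time. Another 30 were covered at 0 and 96 h and at neither 30 nor 40 h (background 17.6%, out of 156 covered at both ends). The genes lost by 30 h included Olfr1340, Olfr1341 and Olfr1342, a stretch of the chromosome 4 cluster covered over 100% of the window in WT replicate 1, KO and 0 h, and 0% at 30 and 40 h. Olfr1331 of the same cluster was at 100% at 0 h, 0% at 30 h and 100% at 40 h. On chromosome 11, Olfr1375 and Olfr1382 were at 100% at 0 h and at 0% at 30 and 40 h. Olfr10 on chromosome 11 and Olfr1359 on chromosome 13 were gained, from 0% at 0 h to 100% at 30, 40 and 96 h, but both were also at 100% in WT replicate 1. A gene counted as gained from 0 h could thus be covered in the other WT baseline library.

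H3K4me3 was nearly absent from the family. A peak touched the window of 8 Olfr genes in WT replicate 1 (0.725%, background 71.8%), 9 in KO replicate 1 (0.815%, background 71.3%), 1 in WT replicate 2 (0.0906%, background 62.8%) and 1 in KO replicate 2 (0.0906%, background 65.7%). No Olfr gene was gained or lost in KO, when a gain or loss had to hold in both libraries of each genotype. Over all genes 29 were gained (background 0.504%) and 0 were lost. In at least 1 library 10 Olfr genes had a peak (background 73.5%). The replicate 1 lists held 70687 and 71868 peaks and the replicate 2 lists 24917 and 26206.

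Olfr1033 was the only receptor with a peak in all 4 libraries (background 62.1%). It lies in the 222-gene cluster at chr2:86020640-86044808, over 500 kb from the nearest gene of another kind, and H3K27me3 covered none of it in any library. Its main peak spanned the lower-coordinate end of the gene and had a length of 1435 bp in WT replicate 1 (chr2:86019633-86021067) and 1807 bp in WT replicate 2, and of 1787 and 1899 bp in the 2 KO libraries. The authors' fold of that peak was 16.6 and 31.3 in WT and 15.3 and 38.3 in KO. All peaks together covered 8.47% and 8.65% of its window in WT and 9.99% and 8.74% in KO. The KO value was thus the higher for each replicate number, though by little in replicate 2 (2.264 against 2.286 kb). The whole lists spanned 44.6 Mb in WT and 44.1 Mb in KO for replicate 1, and 20.9 and 24.7 Mb for replicate 2. How many other genes had this order was not counted. With 2 libraries per genotype the difference at Olfr1033 has no usable test.

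The other receptors had peaks in replicate 1 libraries alone. Both replicate 1 libraries had a peak at Olfr212, Olfr658, Olfr750, Olfr94, Olfr1160 and Olfr1393 (background 5.40%), WT replicate 1 alone had one at Olfr59, and KO replicate 1 alone had them at Olfr95 and Olfr1100. These 9 genes were chosen after their values were seen. Their peaks had folds of 3.50 to 8.46. Olfr658 had 157 and 171 bp at folds of 4.96 and 4.74, and Olfr1160 had 179 and 139 bp at 4.67 and 4.21. Olfr1393 had a stronger peak, 368 bp long with a fold of 8.46 in WT replicate 1 and 358 bp long with a fold of 6.58 in KO. WT replicate 1 had a further peak of 244 bp at a fold of 3.50 beside Olfr1393, within 1 kb of Mgat1, a gene of another kind. Olfr94 had a peak of 281 bp inside a window that H3K27me3 covered over 100% in all 6 libraries.

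H3K9me3 was also rare on receptor genes in liver. Broad peaks held at least 10% of the window of 10 Olfr genes in WT (0.906%, background 3.18%) and 8 in KO (0.725%, background 2.91%), and touched 25 and 24. Both libraries reached 10% at 6 genes (background 2.58%). Over the summed cluster spans, which include the stretches between genes, broad peaks held 2.81% in WT and 2.19% in KO. The mean share of the window was 0.296% and 0.244% for Olfr genes, and 1.61% and 1.51% for other genes. The lists held 56.4 Mb in WT and 48.5 Mb in KO, and the share of the whole genome was not computed. Olfr1388 on chromosome 11 had 48.6% of its window in peaks in WT and 43.4% in KO, Olfr1055 on chromosome 2 48.4% and 51.5%, and Olfr212 on chromosome 6 35.7% and 31.8%. Olfr794 had 23.8% and 10.3%, Olfr1348 18.2% in both, Olfr784 16.8% and 19.4%, Olfr725 15.1% and 9.83% and Olfr159 10.6% and 7.47%. A gene counted as lost when the other library had no base in a peak: Olfr774, at 28.3% in WT and 0% in KO, and Olfr599, at 13.4% and 0%, were lost (2 of 10, background 3.35%). Olfr401, at 0% and 13.1%, was gained (1 of 8, background 1.83%). The peaks behind these calls had folds of 3.12 at Olfr774, 3.11 at Olfr599 and 3.56 at Olfr401.

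Of 13 well studied receptors, 12 were found in the gene table. Olfr78, which responds to short-chain fatty acids and is expressed in the kidney and carotid body, had 77.1% of its window in H3K27me3 islands in WT replicate 1, 84.2% in KO, 97.7% at 0 h, 0% at 30 h, 64.0% at 40 h and 92.9% at 96 h. It was low in the 30 h library alone. Olfr558, its class I neighbour, was covered in all 6, at 100%, 56.9%, 100%, 100%, 100% and 57.4%. Olfr544, a receptor for azelaic acid studied in liver and fat, was at 100% in KO and 0% in the other 5. The class I gene Olfr545 was at 100% in KO, at 0 h and at 96 h and at 0% in WT replicate 1, at 30 h and at 40 h. Olfr160, known as M72, was at 100% in KO, 22.3% at 0 h and 0% elsewhere.

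Olfr1393, studied in the kidney, had 24.1% of its window in islands in WT replicate 1 and 0% in the other 5 libraries, beside the short H3K4me3 peaks described above. The other 6, Olfr2, Olfr15, Olfr16, Olfr17, Olfr73 and Olfr1507, had 0% in all 6. By the 50% rule 2, 5, 3, 1, 2 and 3 of the 12 were covered in WT replicate 1, KO and at 0, 30, 40 and 96 h. The share over all genes was 16.7%, 19%, 22.2%, 15.4%, 14.1% and 18.1% in the same order. A difference between KO and WT was not tested for these 12 genes. None of the 12 but Olfr1393 had an H3K4me3 or H3K9me3 peak in its window.

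Of 29 other genes of olfactory signalling and receptor choice, H3K27me3 covered 9 in WT replicate 1, 9 in KO, 12 at 0 h, 7 at 30 h, 7 at 40 h and 9 at 96 h. An H3K4me3 peak was present at 25 of the 29 in WT replicate 1 (71.8% of all genes), 24 in KO replicate 1 (71.3%), 18 in the second WT library (62.8%) and 21 in the second KO library (65.7%). The list includes chromatin genes expressed in many tissues, such as Kdm1a, Setdb1 and Cbx5. H3K9me3 reached 10% of the window in none of the 29. Lhx2, the homeodomain factor of receptor choice, had 100% of its window covered in WT replicate 1, KO, 0 h and 96 h, 30.0% at 30 h and 4.52% at 40 h. Emx2, another homeodomain factor, was at 100% in the same 4 libraries and at 15.7% and 0% at 30 and 40 h. The Ebf family gene Ebf3 stayed covered in all 6, between 87.0% and 100%. Ldb1, the cofactor of Lhx2 that is expressed in many tissues, had 0% in all 6 and H3K4me3 over 14.4% to 26.1% of its window. Omp had none of the 3 marks.

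Among other chemosensory families, the Vmn1r genes came closest to the Olfr genes in H3K27me3, with 33 of 230 covered in WT replicate 1 (14.3%) and 28 in KO (12.2%). The Vmn2r genes had 7 of 122 covered in each (5.74%), the bitter taste receptors (Tas2r) 1 of 35 (2.86%) and the trace amine receptors (Taar) 0 of 15. H3K4me3 in WT replicate 1 touched 1 Vmn1r gene and 4 Vmn2r genes and no Taar or Tas2r gene. Among the 195 genes of other kinds inside the large Olfr clusters, 27 were covered by H3K27me3 in WT replicate 1 (13.8%) and 108 had an H3K4me3 peak (55.4%).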

How the data were processed

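Liver chromatin was profiled by ChIP-seq in 15 libraries, of which 3 were controls without a region list of their own. The submitters' processing notes name SICER, MACS2, Picard, BWA, FastQC 0.11.5 and Trimmomatic and the builds GRCm38.p4 and mm10, with no order or settings. The authors deposited SICER islands for H3K27me3, with ChIP and control read counts per island, a p-value, a fold ratio over control and a false discovery rate; the file names give a window of 1000 and a gap of 4000 bp. For H3K4me3 and H3K9me3 the authors deposited MACS2 peaks with a score, a fold ratio and −log10 p and q values. Total depth is not in these files, so the island read counts and the ratio of library sizes implied by the folds (ChIP over control reads, divided by the fold) stand in for it. Libraries were taken to share a control where islands of the same position held equal control counts (411 of 411 for WT replicate 1 and KO).

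Islands with a false discovery rate above 0.01 were left out. Gene positions came from the RefSeq table of GRCm38.p6. A window of the gene and 1000 bp on each side was called for H3K27me3 at 50% in islands, for H3K4me3 at 1 bp in a peak and for H3K9me3 at 10% in broad peaks. The round 2 H3K4me3 libraries were grouped by title, since an antibody label of theirs names H3K9me3.

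Named genes were at most 10 per change, ranked by the covered share in the libraries that have the mark and then by symbol, with the 5 highest and 5 lowest clusters and the receptors and pathway genes of 2 lists. The members and lists were chosen with earlier results of these data known. The overlap code recovered 500 of 500 simulated windows, and the calls of change were tested on simulated data of 20665 genes with 200 losses and 200 gains. They recovered 195 of the 195 losses and 198 of the 198 gains that no overlapping gene hid, with 27 further calls at other genes. Overlaps were computed with pandas 2.3.3 and numpy 2.4.6 under Python 3.11.15, intervals with scipy 1.17.1 and figures with matplotlib 3.10.9.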

Additional observations from a re-analysis of the deposited data

How the results depend on the processing

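Of the counts and differences recomputed, 90 kept their direction and stayed within the limit for a like value, and 44 moved. The recomputation covered Olfr genes alone, so no share over all genes stands beside these counts. With islands of fold 1.5 or more, the covered genes came to 114 in WT replicate 1, 115 in KO, 119 at 0 h, 51 at 30 h, 33 at 40 h and 125 at 96 h. Losses in KO came to 7, gains from 0 h to 9, 6 and 37 at 30, 40 and 96 h, and the near minus far difference to 35.8 points. The alternatives for that difference, and WT replicate 1 as the start of the time course, were chosen after seeing the data. At equal covered length KO had 111 covered genes and 2 gains, and from 0 to 40 h 53 were lost and 53 gained. Leaving out either WT library left 38 to 42 losses and 26 to 36 gains in KO. H3K4me3 over at least 10% of the window left 0 genes in WT replicate 1, 1 in KO replicate 1, 0 in WT replicate 2 and 0 in KO replicate 2. Leaving out a library gave 0 to 2 H3K4me3 gains and 0 to 1 losses. For H3K9me3 in WT, narrow peaks gave 5 genes, q of 1e-05 gave 1, any base 25, 50% of the window 0 and the gene body 5. In KO these gave 4, 0, 24, 1 and 5. H3K9me3 losses were 0, 0, 6, 0 and 1, and gains 0 with the stricter q, 5 with any base, 0 at 50% and 0 over the gene body. Olfr689 turned from a lower to a higher KO value (32.7 points) at fold 1.5 or more. This cutoff removed its islands in WT replicate 1 and at 0 h (folds of 1.40 in both) and kept its KO island (1.51). Olfr1449 turned from higher to lower (-4.43 points) at equal covered length, and the cause was not tested. Of the 17 genes lost in KO, 6 remained so at fold 1.5 or more and 9 at equal length, and of the 9 gained 2 and 2. No paired analysis was possible because H3K27me3 and H3K9me3 had 1 KO library each and the H3K4me3 calls come from no fitted test. Read by replicate number, Olfr1033 had a larger covered share in KO in both, and the labels give no round for replicate 1. The depth of the 40 h list, the shortest at 378 Mb, limits what it could show.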
